A study of Mus musculus with 2 samples.

Results

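The replication-dependent histone genes encode the bulk of the linker histone H1 and of the core histones H2A, H2B, H3 and H4. The members were chosen by symbol, as every protein-coding gene whose name begins with Hist1h, Hist2h, Hist3h or Hist4h. This gave 67 genes of 21853 protein-coding genes that have a protein-coding transcript start in the GENCODE M21 annotation. Hist1, on chromosome 13, holds 54 of them. Hist2 on chromosome 3 holds 10, Hist3 on chromosome 11 holds 2, and Hist4 on chromosome 6 holds 1. By protein, 6 encode H1, 18 encode H2A, 18 encode H2B, 12 encode H3 and 13 encode H4.

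Replication-dependent histone genes are transcribed mainly in S phase, when newly copied DNA has to be packed into nucleosomes. An H3-H4 tetramer and H2A-H2B dimers form the nucleosome core, and H1 binds the linker DNA between cores. The genes lack introns as a rule, and their messages end in a conserved stem-loop, bound by the stem-loop binding protein, in place of a poly(A) tail. In the nucleus the large clusters gather in the histone locus body, whose scaffold protein NPAT is activated by cyclin E and CDK2. Histones of the replacement type, such as H3.3 and H2A.Z, come from isolated genes that are expressed throughout the cell cycle.

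Open chromatin was measured by DNase-seq, which sequences the ends left by the nuclease DNase I where DNA is accessible. Urinary bladders came from male B6CASTF1/J mice, F1 hybrids of C57BL/6J and CAST/EiJ, at an age of 14 days. Per the labels, replicate 1 came from a male and replicate 2 from 3 pooled males. Both fall in 1 group with no treatment, so the design compares no conditions, and each value is given for both libraries, with mean ± SD (n = 2). The tissue was bulk, so a smaller share of open cells and less opening per cell cannot be told apart, and the design does not record how many cells were dividing.

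Replicate 1 had 139821 peaks and 331596 footprints, and replicate 2 had 82225 peaks and 200630 footprints. A footprint is a short stretch within open chromatin that the authors' method found protected from cutting. Peaks of the replicates that overlapped formed 73225 shared regions, and a gene counts as open when 1 of these lies within 1 kb of a transcription start. The signal of a region is the authors' deposited value per peak, on a scale whose normalization no source used here records, and was compared within a replicate only. Its median over shared regions was 1.281 in replicate 1 and 0.9753 in replicate 2, so an SD over the libraries also holds that difference. The promoters of all 7 urothelial, 5 smooth muscle and 4 stromal marker genes tested were open, Upk2, a urothelial plaque gene, at 5.27 and 3.68. None of 4 immune markers (Ptprc, Cd3e, Cd79a and Csf1r) and none of 3 hepatocyte markers had a peak in either library, and of 5 germ cell markers only Dazl was open. All 5 proliferation markers were open, among them the S-phase cyclin gene Ccna2 at 12.9 and 10.6.

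Most histone promoters were open, but with weak signals. In both libraries together 59 of the 67 promoters (88.1%) were open, where 65% of all protein-coding promoters were. The nearest region covered the start itself in 47 of the 59 open members (79.7%), beside 85.5% of all open genes. Each replicate alone had a peak at the same number, 59, beside 69.4% of all genes in replicate 1 and 65.7% in replicate 2. No histone gene had a peak in only 1 replicate. The authors' stricter peak lists left 53 open (79.1%), beside 60.7% of all genes. A footprint found in both replicates lay within 1 kb of the start of 53 genes (79.1%), beside 60.7% of all genes. The region nearest the start had a median signal of 2.90 in replicate 1 and 2.37 in replicate 2 over the 59 open members. Over all 14197 open promoters the medians were 4.64 and 3.91. By the strongest region in the window the medians were 3.34 and 2.57 for the members and 5.02 and 4.21 for all open promoters. In a dense cluster the strongest region within 1 kb can belong to a neighbour, and in 13 of the 59 it was not the nearest. Values are therefore those of the nearest region unless another is named. Just inside the limit of 1 kb, a region 985 bases after the start of Hist1h1b had 1.82 and 1.15, and just outside it a region 1123 bases after the start of Hist1h2bl had 1.27 and 0.935.

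Signals came in steps of 0.00521 (replicate 1) and 0.00799 (replicate 2). Taking a step as 1 cut, which no label records, the strongest member, Hist1h4c at 12.4 in replicate 1, has an exact Poisson 95% interval of 11.9 to 12.9. The weakest open member, Hist1h1t at 0.338, has 0.261 to 0.431. These intervals cover counting error only.

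The histone types differed in their levels, with H4 highest. The 13 H4 promoters were all open, with a median signal of 8.04 in replicate 1 and 6.87 in replicate 2, above 74.5% and 75.3% of all open promoters. The other 46 open members had medians of 2.42 and 1.92. The H1 promoters, 5 of 6 open, had medians of 3.44 and 2.37. For H3, 11 of 12 open, the medians were 2.82 and 2.08. For H2A, 15 of 18 open, they were 2.43 and 2.25. The H2B promoters, 15 of 18 open, had the lowest medians, 1.71 and 1.59. H4 came first and H2B last in both libraries, while H2A and H3 changed places between them. Of 13 H4 genes, 8 reached a signal of 5 in both replicates, against 2 of the 46 others. Genes of a type share sequence and are not replicates, so these medians carry no test. The types also differ in how much of their sequence occurs once in the genome, as given further below.

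**Figure D1:**
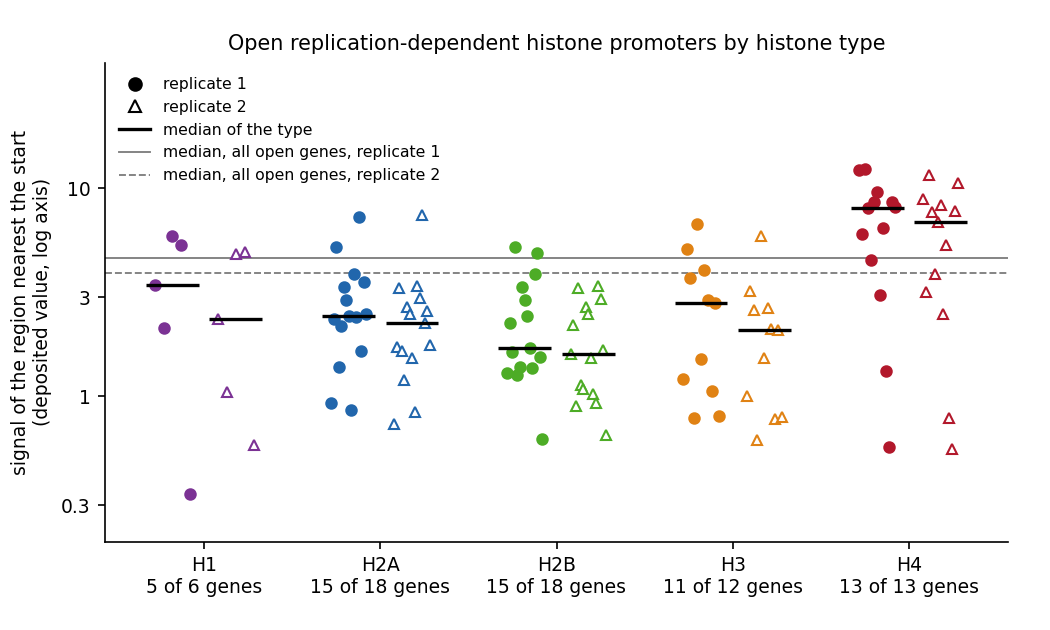
Signal of the shared region nearest each open start, by histone type, on a log axis. Filled circles are genes in replicate 1, open triangles genes in replicate 2, black bars type medians, and grey lines the medians of all 14197 open promoters. The H4 medians of 8.04 and 6.87 lie above the grey lines and the medians of the 4 other types below them.

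H4 is the most conserved core histone, and its 13 genes encode the same protein or nearly so. The highest signal of any member was at Hist1h4c, with 12.4 in replicate 1 and 11.5 in replicate 2 (11.96 ± 0.585). Hist1h4a had 12.2 and 8.93 (10.6 ± 2.34), Hist4h4 8.14 and 10.6 (9.35 ± 1.72), and Hist1h4i 9.63 and 8.35 (8.99 ± 0.906). Hist1h4c was above the other 3 in replicate 1 and in replicate 2, while Hist1h4a and Hist4h4 changed places between the libraries. Hist2h4, the H4 gene of the Hist2 cluster, had 8.56 and 7.82 (8.19 ± 0.524). At the low end Hist1h4m had 1.33 and 0.783 (1.06 ± 0.385) and Hist1h4n 0.573 and 0.560 (0.566 ± 0.00927). They lie near each other in the first stretch of Hist1 and are nearly identical in sequence: of the 32-base words within 1 kb of their starts, 4.21% and 4.26% occurred once in the genome. Without such members the 11 other H4 genes ran from 3.08 to 12.4 in replicate 1. The letters GGTCCG, the core of the H4-specific promoter element that the factor HINFP recognises, were present in the promoters of 11 of the 12 H4 genes with a RefSeq promoter. They occurred in 10.5% of all 21237 protein-coding promoters of the same length, 250 bases before to 50 after the start, searched on both strands. The H4 gene whose RefSeq promoter lacked these letters was Hist1h4a, second highest by its mean. Its nearest region ends 91 bases before the annotated start. The stretches around the element are printed to show what the 11 other genes, strongly and weakly open, share. The element is in capitals (RefSeq, GRCm38.p6, 5′ to 3′ on the strand of the gene).
Hist1h4j (chr13:21734996-21735059, plus strand): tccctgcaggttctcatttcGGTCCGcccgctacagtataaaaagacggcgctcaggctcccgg
Hist1h4k (chr13:21750542-21750605, minus strand): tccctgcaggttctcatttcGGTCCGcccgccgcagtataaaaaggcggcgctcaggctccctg
Hist1h4m (chr13:21811679-21811742, plus strand): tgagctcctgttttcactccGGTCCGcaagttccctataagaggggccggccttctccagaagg
Hist1h4n (chr13:21832200-21832263, minus strand): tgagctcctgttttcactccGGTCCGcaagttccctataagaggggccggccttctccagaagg
Hist1h4i (chr13:22041365-22041428, minus strand): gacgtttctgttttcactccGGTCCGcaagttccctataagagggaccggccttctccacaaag
Hist1h4h (chr13:23531019-23531082, plus strand): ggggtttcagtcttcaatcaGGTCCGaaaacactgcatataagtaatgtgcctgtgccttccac
Hist1h4f (chr13:23551671-23551734, minus strand): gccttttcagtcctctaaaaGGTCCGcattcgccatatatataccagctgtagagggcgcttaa
Hist1h4d (chr13:23581501-23581564, plus strand): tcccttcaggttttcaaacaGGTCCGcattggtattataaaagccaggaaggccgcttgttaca
Hist1h4c (chr13:23698461-23698524, minus strand): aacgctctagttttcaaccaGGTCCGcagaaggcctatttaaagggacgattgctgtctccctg
Hist1h4b (chr13:23756923-23756986, plus strand): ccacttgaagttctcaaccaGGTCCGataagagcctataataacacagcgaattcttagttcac
Hist4h4 (chr6:136804420-136804483, minus strand): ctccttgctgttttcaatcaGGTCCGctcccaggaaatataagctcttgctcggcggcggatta

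The 11 elements all lay on the coding strand, most often 46 bases before the RefSeq start, with a range from 47 before to 6 after it. The printed stretches of Hist1h4m and Hist1h4n are identical, and those of Hist1h4j and Hist1h4k differ at 4 of 64 bases, whereas the most unlike pair differs at 41. The letters TATAAA, those of the TATA box, were found on either strand in 8 of 12 H4 promoters and in 12.6% of all promoters. In the H4 promoters their first base lay anywhere from -250 to 41 relative to the start, with a median of -79.5. Only 4 of these 8 matches lay in a shared region, so the count is of letters and not of placed TATA boxes. Of the 11 elements, 9 lay within a shared region, and the 2 outside were those of Hist1h4m and Hist1h4n, whose regions begin inside the element. All 9 were covered by a footprint in replicate 1 and 7 by a footprint in both replicates, a share of 77.8%. Of all 1559 GGTCCG matches in shared regions at protein-coding promoters, 16.2% were footprinted in both. In replicate 1 the footprints were 13 to 47 bases long, with a median of 33, and 8 of the 9 spanned the whole element. At Hist1h4c the footprint reached from 65 to 20 bases before the start in replicate 1 and from 64 to 20 in replicate 2. At Hist1h4i it reached from 64 to 18 and from 64 to 21. Hist1h4f and Hist1h4j had the element footprinted in replicate 1 only. H4 regions also had more signal than most, and 24.1% of the bases of the nearest regions of H4 genes were footprinted in both replicates, beside 13.6% for all open promoters. The part of signal in the share of 77.8% was not tested.

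The promoter of Hist1h4c, the most open member, is printed in full with the bases footprinted in both replicates in capitals, 82 of 300. The second run of capitals holds the H4 element, and the first holds a CCAAT box, a site of the factor NF-Y.
Hist1h4c (chr13:23698409-23698708, minus strand): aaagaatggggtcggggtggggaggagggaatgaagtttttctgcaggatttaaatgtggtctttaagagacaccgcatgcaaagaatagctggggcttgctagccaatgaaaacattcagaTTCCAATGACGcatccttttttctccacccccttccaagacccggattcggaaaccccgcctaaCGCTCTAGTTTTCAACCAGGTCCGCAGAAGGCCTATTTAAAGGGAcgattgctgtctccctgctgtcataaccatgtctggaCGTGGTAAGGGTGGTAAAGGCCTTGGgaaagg

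**Figure D2:**
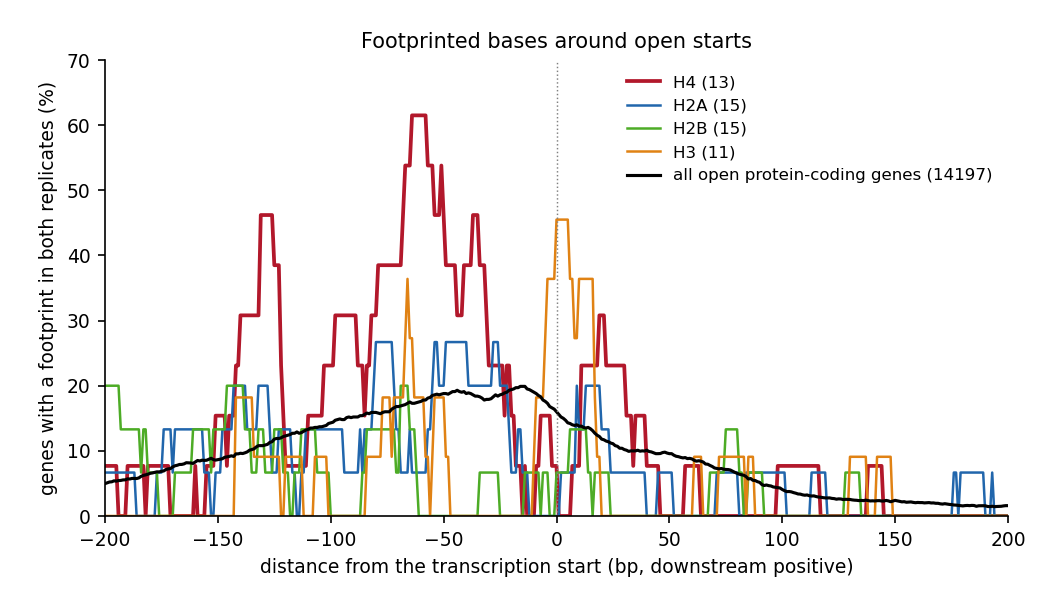
Share of open genes with a footprint of both replicates over each base, by distance from the annotated start, for H2A, H2B, H3 and H4 genes and for all open protein-coding genes (numbers of genes in brackets). The H4 line peaks at 61.5%, or 8 of 13 genes, between 64 and 58 bases before the start, and the line of all genes at 19.9%.

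H4 genes were the exception for the CCAAT box. It was found in the promoters of all H1, H2A, H2B and H3 genes that have a RefSeq entry, but in 3 of 12 H4 promoters. Over members as a whole it was present in 85.7% of promoters, beside 38.2% of all promoters. A GC box, GGGCGG, was found in 9 of 12 H4 promoters but in 2 of 17 H2B promoters, where 46.2% of all promoters held one. Histone promoters were less GC-rich, with a median of 45.3% beside 56.3%, but less depleted of CpG, with a median observed over expected ratio of 0.746 beside 0.567. RefSeq promoters were matched for 62 of the 67 members, and Hist2h2be, Hist2h4, Hist1h3f, Hist1h2bc and Hist1h3a had no entry.

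H2A and H2B genes lie mostly in divergent pairs that share the DNA between their starts. There were 13 divergent pairs with starts 176 to 660 bp apart, 12 of H2A with H2B and 1, Hist1h2bh with Hist1h3f, of H2B with H3. Both genes were open in 10 of the 13. In 5 pairs a common region lay nearest both starts, in 5 each start had its own region, and 3 pairs had none. Each common region covered the annotated start of only 1 gene of its pair and stopped short of the other. The covered starts were those of Hist1h2ad, Hist1h2bp, Hist1h2ag, Hist1h2ah and Hist1h2ai. The strongest common region, between Hist1h2bf and Hist1h2ad, had 5.25 and 3.33 (4.29 ± 1.36). Between Hist1h2an and Hist1h2bp it had 3.87 and 3.39 (3.63 ± 0.342), and between Hist1h2ag and Hist1h2bj 3.34 and 2.69 (3.02 ± 0.455). Over the 5 common regions the means of the replicates ran from 1.98 to 4.29, and over pairs in which each start had its own region from 0.849 to 3.05. Of the latter, Hist1h2ae had 1.39 and 1.66 (1.52 ± 0.187), and its partner Hist1h2bg 1.27 and 1.14 (1.2 ± 0.0919). Hist1h2ak, at 0.859 and 0.839 (0.849 ± 0.0139), and Hist1h2bn, at 1.38 and 0.927 (1.15 ± 0.316), form another such pair. The DNA between a common pair is shown from the Hist1h2bj side, with the CCAAT boxes of either strand in capitals.
Hist1h2bj (chr13:22042948-22043247, plus strand): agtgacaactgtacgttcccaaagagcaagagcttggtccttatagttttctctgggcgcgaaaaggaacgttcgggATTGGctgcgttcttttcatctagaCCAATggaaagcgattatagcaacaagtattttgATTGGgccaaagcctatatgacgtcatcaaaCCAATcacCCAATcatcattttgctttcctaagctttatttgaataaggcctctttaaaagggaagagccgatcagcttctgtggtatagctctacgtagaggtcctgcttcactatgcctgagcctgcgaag

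The 25 capitals mark 5 boxes. H2A promoters held 54 CCAAT matches in 18 genes and H2B promoters 56 in 16, many of them the same boxes read from both sides. In this pair the first and the third box from the left were footprinted in both replicates, and the others in neither. Over all members 15 of 87 CCAAT matches in shared regions (17.2%) were footprinted in both, beside 21.1% for all promoters. The octamer ATTTGCAT, the site of OCT-1 known from H2B promoters, was in 7 H2A and 7 H2B promoters and in no other type, 22.2% of members beside 1.66% of all promoters. None of its 3 matches in shared regions was footprinted, and over all promoters 1.74% were footprinted in both replicates. The E2F-like letters TTTNGCGC were likewise in 7 H2A and 7 H2B promoters, 22.2% beside 1.75%, and 5 of 10 matches in shared regions (50%) were footprinted in both replicates, beside 39.3% over all promoters. Paired genes share matches, so these counts are not independent. A shared region lay over the base 200 before the start in 11 of 15 open H2B genes and 9 of 15 open H2A genes, against 1 of 13 H4 genes and 29.2% of all open genes. In divergent pairs of H2A with H2B the starts lie 176 to 306 bp apart. For paired genes this base is therefore near the start of the partner. The nearest regions of H2B genes were wider, with a median of 280 bases beside 200 for H4.

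Among H2A genes the highest signal was at Hist2h2aa2, with 7.29 and 7.44 (7.37 ± 0.105), the only H2A or H2B member above 6 in both libraries. The lowest H2A values were those of Hist1h2ab, with 0.927 and 0.736 (0.831 ± 0.135), and Hist1h2ak. Among H2B genes Hist1h2bf was highest through its common region, which covered the start of Hist1h2ad and not that of Hist1h2bf. Hist2h2bb followed with 4.86 and 2.93 (3.90 ± 1.36). Hist3h2ba was lowest with 0.625 and 0.656 (0.640 ± 0.0218) and was missing from the stricter lists. Hist1h2be has annotated starts as far apart as 35154 bp. At the RefSeq start on the far side from Hist1h1e, a region covering 50 bases before to 149 after it had 1.86 and 1.99 (1.93 ± 0.0933), and at the GENCODE start beside Hist1h1e the nearest region had 1.64 and 0.903 (1.27 ± 0.521).

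H3 promoters spanned a wide range. Hist1h3e led with 6.72 and 5.90 (6.31 ± 0.581), followed by Hist1h3b with 5.12 and 3.20 (4.16 ± 1.36) and Hist1h3g with 4.04 and 2.67 (3.36 ± 0.969). Hist1h3d, with 0.786 and 0.616 (0.701 ± 0.121), was open by the looser lists only and had no shared footprint. At Hist1h3a the region over its start had 1.22 and 1.01 (1.11 ± 0.149), whereas the strongest region in its window, at 12.2 and 8.93, is the one nearest Hist1h4a. Hist1h3f had its nearest region inside the gene, 389 to 588 bases after the start, with 1.51 and 1.54 (1.52 ± 0.0214). From the annotated start to 5 bases after it, 5 of 11 open H3 genes (45.5%) had a footprint in both replicates, beside 16% of all open genes at the start itself. Some annotated starts of members are only the first coding base, since 11 members are annotated by a coding-only transcript.

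Some linker histone genes had regions along the gene as well as at the start. Hist1h1c had 5.93 and 4.82 at the start (5.37 ± 0.781) and Hist1h1e 5.35 and 4.93 (5.14 ± 0.297), the highest of the type. Hist1h1a followed with 3.44 and 2.37 (2.90 ± 0.760) and Hist1h1b with 2.12 and 1.05 (1.58 ± 0.758). Measured from the RefSeq start, Hist1h1c and Hist1h1e each had 3 regions: over the start, inside the coding sequence, and past the stop codon. Hist1h1d also had 3, of which the middle one, from 289 to 848 bases after the start, runs past the end of its coding sequence. In Hist1h1c the coding region was weak, with 1.00 and 1.26 (1.13 ± 0.186), while the region past the stop codon, 814 to 1153 bases from the start, had 6.73 and 5.24 (5.98 ± 1.05) and exceeded that at the start in both libraries. In Hist1h1e the 3 regions had 5.35, 0.729 and 2.63 in replicate 1 and 4.93, 0.895 and 1.98 in replicate 2. The region over the base 400 after the start was present in 3 of 5 open H1 genes, in 0 of 13 H4 genes and in 21.5% of all open genes. H1 genes also had the largest share of genome-unique sequence. A median of 97.9% of the 32-base words in their first 500 bases occurred once in the genome. This share was 56.5% for H4, 34.4% for H2A, 36.9% for H2B and 29% for H3. For Hist1h1d these bases follow the GENCODE start, which lies 1770 bp from the RefSeq start. Whether repeated sequence hid regions inside the other genes was not tested.

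**Figure D3:**
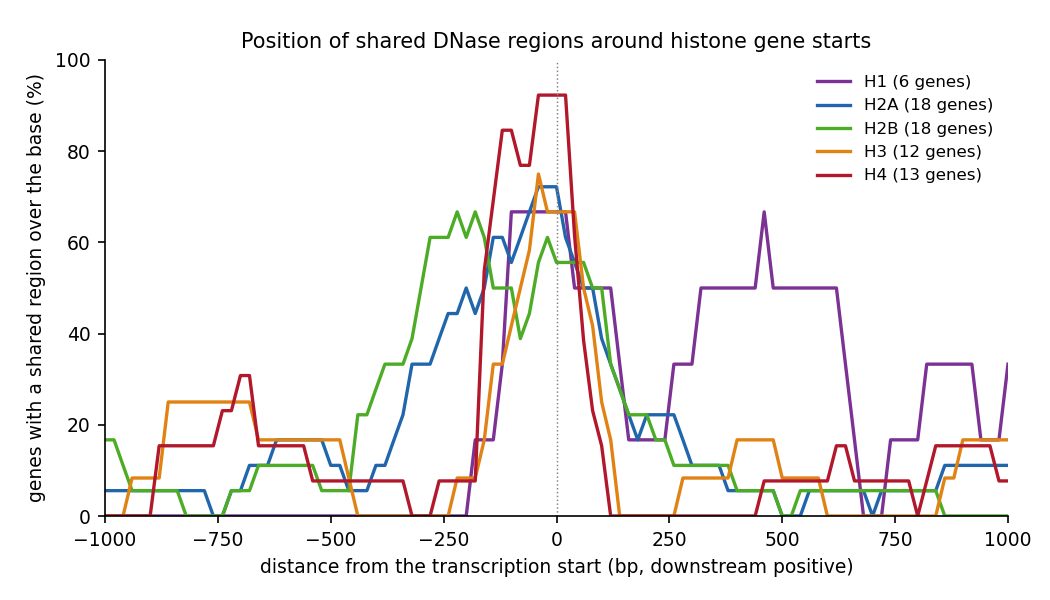
Share of the genes of each histone type that had a shared region over a base, by distance from the annotated start in steps of 20 bp. H4 regions are narrow and reach 12 of 13 genes at the start, regions of H2B and H2A genes more often reach 200 bases upstream, and H1 genes have regions inside the gene, 3 of 6 at 400 bases after the start. In divergent H2A and H2B pairs the base 200 upstream lies near the start of the partner.

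The H1 box AAACACA, an element named for H1 promoters, was found in 5 of 6 H1 promoters, between 122 and 112 bases before the start at its first base, and in 6.15% of all promoters. The stretches are printed to show the box and its flanks, with the box in capitals.
Hist1h1b (chr13:21780724-21780754, minus strand): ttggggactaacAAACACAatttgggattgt
Hist1h1d (chr13:23554898-23554928, plus strand): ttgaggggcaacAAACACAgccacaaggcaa
Hist1h1e (chr13:23622655-23622685, minus strand): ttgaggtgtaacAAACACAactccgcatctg
Hist1h1t (chr13:23695685-23695715, plus strand): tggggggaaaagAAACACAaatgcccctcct
Hist1h1c (chr13:23738683-23738713, plus strand): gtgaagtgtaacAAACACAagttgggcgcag

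The box of Hist1h1b lay in a shared region but in no footprint. Those of Hist1h1c, Hist1h1d, Hist1h1e and Hist1h1t fell outside shared regions, which at Hist1h1c and Hist1h1e begin 106 and 102 bases before the start. Hist1h1t encodes the H1 of spermatocytes and carries the box although its start was without a region. Its only region, 452 to 651 bases after the annotated start and inside the coding sequence, had 0.338 and 0.584 (0.461 ± 0.173) and was missing from the stricter lists.

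The 8 promoters without a shared region had no peak and no base at an FDR of 0.05 or lower in either library. Hist1h2aa and Hist1h2ba, a divergent pair, encode H2A and H2B of the testis, and 89.3% of the words in their windows occurred once in the genome. They are the only members without a shared region within 2500 bp of the start. Hist1h1d encodes an H1 of dividing cells, and its GENCODE start lies 1770 bp upstream of the RefSeq start, where the nearest region, from 111 before to 188 after, had 2.80 and 2.21 (2.50 ± 0.417) and 4 shared footprints lay within 1 kb. The pairs Hist1h2bq with Hist1h2ao and Hist1h2ap with Hist1h2br had no word that occurred once in the genome, 0% of their windows. In Hist2h3c1 the share was 19.4%. With at least 50% such words, 5 of 6 H1, 13 of 14 H2A, 15 of 16 H2B, 10 of 10 H3 and 11 of 11 H4 genes were open. Among these, H4 still had the highest medians, 8.14 and 7.65, and H2B the lowest, 1.71 and 1.59. Over all members, the types also differed in the median share of such words in the window. It was 99% for H1, 86.6% for H4, 75.2% for H3, 66.9% for H2B and 66.4% for H2A. The part of this in the order of the signals was not tested. Of all 57 members with at least 50% such words 54 were open, and of the 10 below 50% there were 5. Repeats and closed chromatin cannot be told apart at these 5 genes without the reads, and the treatment of reads with several matches is not recorded in the sources used.

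**Figure D4:**
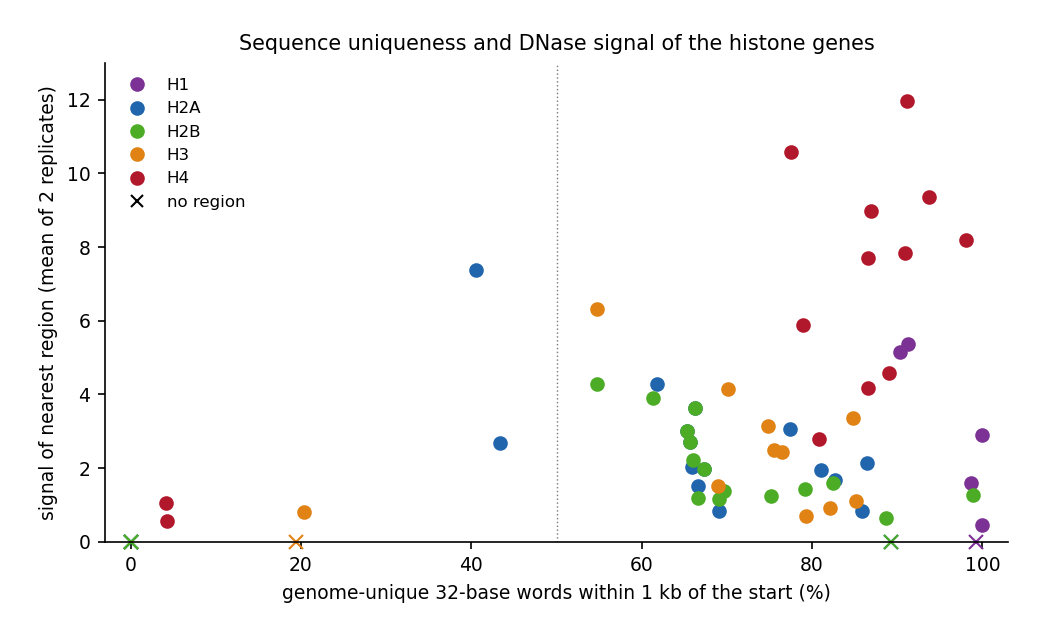
Mean signal of the nearest region (n = 2 replicates) against the share of genome-unique 32-base words within 1 kb of the start, with 1 marker per gene and genes that have no region as crosses at 0. The dotted line marks 50%. The 4 crosses at 0% overlap, as do the 2 of the testis pair at 89.3%.

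The large clusters Hist1 and Hist2 had similar medians. In Hist1 47 of 54 promoters were open with medians of 2.92 and 2.37, and in Hist2 9 of 10 with medians of 2.82 and 2.57. Both Hist3 genes were open, Hist3h2a with 2.50 and 1.77 (2.13 ± 0.518) and Hist3h2ba as given above, as was Hist4h4. The region at Hist3h2a also covered a start of Trim17, the 1 other protein-coding gene with a start in the Hist3 span. Its signal cannot be assigned to either gene. With H4 left aside, H2A promoters had medians of 2.39 and 1.69 in Hist1 (10 open genes) and 2.98 and 2.77 in Hist2 (4 open). H2B promoters had 1.98 and 1.56 in Hist1 (12 open) and 3.205 and 2.302 in Hist2 (2 open). H3 promoters went the other way, with 2.90 and 2.11 in Hist1 (9 open) and 1.81 and 1.44 in Hist2 (2 open). Within Hist2 the order by the mean ran from Hist2h4 over Hist2h2aa2 and Hist2h2bb to Hist2h2ac with 3.54 and 2.57 (3.05 ± 0.689). Below these by the mean lay Hist2h2aa1 with 2.41 and 2.97 (2.69 ± 0.393), Hist2h3b with 2.82 and 2.08 (2.45 ± 0.526) and Hist2h2ab with 1.66 and 2.25 (1.96 ± 0.420). Their order differed between the libraries, with Hist2h3b first in replicate 1 and Hist2h2aa1 in replicate 2. In replicate 2 Hist2h2aa1 also exceeded Hist2h2bb and Hist2h2ac. Hist2h2be had 1.55 and 1.67 (1.61 ± 0.0880), and Hist2h3c2 had 0.802 and 0.799 (0.801 ± 0.00167) in a region that ends 462 bases before its start. Hist2h2aa1 and Hist2h2aa2 belong to an inverted repeat, with 43.4% and 40.6% unique words, so reads could be split between them.

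Hist1 spans 2219 kb, chr13:21715763-23934851, and its genes fall into 4 stretches separated by more than 100 kb. The first stretch, of 18 genes, had 14 open with medians of 2.27 and 1.29. The second, of 5 genes, had all 5 open with 3.34 and 2.69. The third, of 29 genes, had 28 open with 3.56 and 2.48, and the fourth is the testis pair. The first stretch holds the 2 pairs without unique words as well as Hist1h4m and Hist1h4n. Between the stretches lie mostly other genes: of 49 other protein-coding genes with a start in the span, 36 are vomeronasal receptor genes of the Vmn1r family, and 0 of these were open. Of the other 13, 7 were open, the strongest being Zfp322a with 9.29 and 7.45 (8.37 ± 1.30) and Abt1 with 7.77 and 6.56 (7.16 ± 0.858). Shared regions numbered 5.81 per 100 kb over the whole Hist1 span, 27.9 in the Hist2 span, which is 50.3 kb long, and 2.69 genome-wide. In and next to all stretches 86 shared regions were found, of which 47 covered an annotated start of a member and 75 lay within 1 kb of one. Away from starts, a region 611 to 790 bases after the start of Hist1h4h, past the end of that gene, had 4.88 and 4.68 (4.78 ± 0.146). A region 831 to 1030 bases after the start of Hist2h4 had 4.76 and 3.51 (4.13 ± 0.883).

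**Figure D5:**
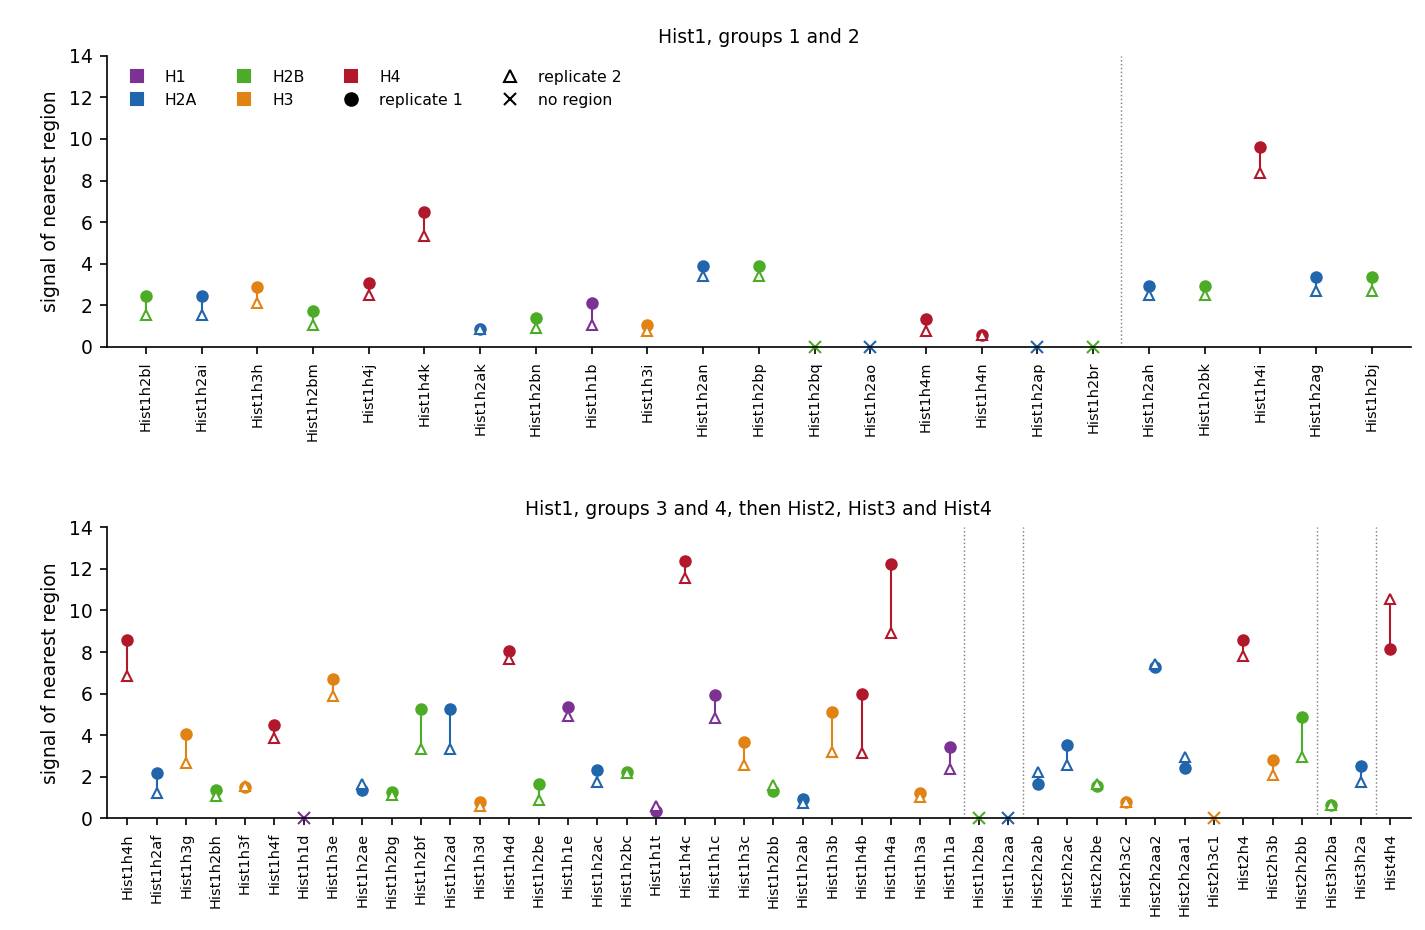
Signal of the nearest shared region for all 67 genes in chromosomal order, with circles for replicate 1, triangles for replicate 2, a line joining both and a cross at 0 for genes without a region. Dotted lines separate the stretches of Hist1 and the clusters. High values stand at scattered H4 genes, with neighbours below 7 in replicate 1, apart from Hist2h2aa2 at 7.29.

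Footprint counts were highest at Hist1h4a. The most footprints found in both replicates within 1 kb of a start were 10 there, 9 at Hist2h2ac and 8 at both Hist2h4 and Hist1h3a, whose windows overlap those of neighbours. The median was 4 per open member, as for all open promoters, and 5 for H4. There were 6 open members with no shared footprint. The replicates differed little once each was divided by its median over shared regions: the log2 ratio of replicate 1 to replicate 2 had a median of -0.08 over open members (SD 0.36), beside -0.16 over all open promoters (SD 0.31). It was highest at Hist1h1b with 0.62, Hist1h4b with 0.53 and Hist1h2af with 0.47. It was lowest at Hist1h1t with -1.18, Hist2h2ab with -0.83 and Hist4h4 with -0.77. These 3 also had the higher deposited value in replicate 2.

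The other end of the genes carries the stem-loop of histone messages, and its letters split the types. Within 100 bases of the annotated transcript end or of the last coding base, 63 of 67 members had a match to the stem-loop consensus, 40 of them near the transcript end. The form of 41 genes of H1, H2A, H2B and H3 was the first printed here, and no H4 gene had it. The second form was found in 9 genes, again of no H4 type. The H4 genes had the last 3 forms printed, in 8, 2 and 2 genes, and no other type had them. A further form was found in 1 gene only, Hist2h2ac. The 5 forms found in more than 1 gene are given at an example gene each, in the order of their counts.
Hist1h1a (chr13:23764392-23764407, plus strand): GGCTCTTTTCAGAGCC
Hist1h1t (chr13:23696525-23696540, plus strand): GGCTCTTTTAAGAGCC
Hist1h4c (chr13:23698089-23698104, minus strand): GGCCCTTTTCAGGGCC
Hist1h4i (chr13:22040966-22040981, minus strand): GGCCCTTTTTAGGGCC
Hist1h4b (chr13:23757366-23757381, plus strand): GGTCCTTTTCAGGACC

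Hist1h2an, Hist1h3g, Hist1h4a and Hist2h2be had no match, and Hist1h4a was the second most open gene by its mean. Keeping only the members with a match by either end left 55 open.

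Genes that work with histones had higher medians than the clustered genes themselves, all given here for the strongest region in the window. All 11 replacement and variant histone genes were open with medians of 7.497 and 7.587. Among them H2afv, a gene for H2A.Z, had 14.6 and 12.8 (13.7 ± 1.21), H2afj 11.7 and 12.6 (12.1 ± 0.651), and the H3.3 genes H3f3a and H3f3b 7.497 and 7.587 (7.54 ± 0.0632) and 7.10 and 7.10 (7.10 ± 0.00180). The lowest was H2afy2, of macroH2A, with 1.55 and 1.37 (1.46 ± 0.131). All 23 genes for transcription factors and messenger processing of histone genes, with those of cyclin E and CDK2, were open with medians of 8.30 and 7.55. Npat had 14.5 and 13.4 (13.9 ± 0.751), Hinfp, whose product recognises the H4 element, 11.0 and 10.2 (10.6 ± 0.555), and Slbp, the stem-loop binding protein gene, 8.30 and 7.45 (7.88 ± 0.604). The 15 histone chaperone genes had medians of 9.53 and 7.81, with Ubn1 highest at 15.4 and 11.7. The 37 DNA replication genes had 7.64 and 6.44, with Pold1 highest at 17.4 and 12.3, and the 77 ribosomal protein genes 8.80 and 7.08. By the same measure Hist1h4c had 12.4 and 11.5, within the range of these lists. The clustered genes together had medians of 3.34 and 2.57, and the H4 genes alone 8.04 and 6.87. The H4 medians lay above those of the DNA replication genes in both libraries. They exceeded those of the replacement and variant histones in replicate 1 only, and lay below the other lists.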

How the data were processed

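DNase-seq was done on urinary bladder of B6CASTF1/J males in 2 libraries, which the labels number as biological replicates and which were put in 1 group. Each library has 2 deposited peak lists, with a signal per peak that the authors computed. Its deposited FDR track holds a multiple-testing q-value (FDR) by the authors, up to 0.05. All peaks of the looser list overlapped positions at 0.05 or below, and all of the stricter list positions at 0.001 or below. The score deposited with each footprint by the authors is a constant, so footprints were used as positions. Files use mm10 and each was made from its own library, per the labels' notes. The aligner and callers, with versions, were not given in the sources used here.

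Peaks of both replicates that overlapped by at least 1 bp were joined into shared regions, and a footprint of replicate 1 counted as shared where it overlapped a footprint of replicate 2. Starts were those of all protein-coding transcripts in GENCODE M21, with 1000 bp each way, and 85 protein-coding genes without such a start were left out. Promoter and genome sequence came from RefSeq GRCm38.p6, the C57BL/6J reference, so CAST/EiJ alleles were not considered. Near-identical copies were measured as the share of 32-base words found once in the genome on either strand. The read length is not known. In each type the 3 open members with the highest and the 2 with the lowest mean signal were to be named, with all members without a shared region, all of Hist2, Hist3 and Hist4, the extremes in footprints and replicate ratio, and up to 4 genes per comparison list. Genes chosen for their layout, the H1 genes and Hist1h2be among them, were named after their values were seen. The members and lists were chosen with earlier results of these data known. With 1 group there is no test, and genes that share regions are not replicates. The overlap step was tested on simulated data, where 100% of 915 planted promoters among 1830 were found. Tools were Python 3.11.15, scipy 1.17.1, numpy 2.4.6, matplotlib 3.10.9 and pandas 2.3.3.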

Additional observations from a re-analysis of the deposited data

How the results depend on the processing

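The number of open promoters, 59, was the same for windows of 500 bp, for each replicate alone (59 to 59) and for an overlap of at least 50% of the shorter peak. It was 53 with the stricter lists, 57 with equal numbers of peaks, 60 with RefSeq starts, an alternative added after seeing the data, and 65 with windows of 2500 bp. Of 151 values over all settings, 138 stayed within 1.5 times the reported count or 1 SD between replicates, and 13 moved. These limits are wide: a count of 59 among 67 genes cannot rise by that factor, and the SD of 0.545 also holds the difference in scale between the libraries. The values that moved include the genome-unique share, to which neither limit applies. Counting each shared region once lowered the median strongest signal to 2.41 in replicate 1 and 1.77 in replicate 2, and dividing by the median over shared regions gave 2.61 in replicate 1. Only 1 Hist3 gene was open by the stricter lists. Keeping only the genes with a stem-loop match near the transcript end left 34 open: 28 of Hist1, 0 of Hist3 and 0 of Hist4, and by type 2 of H1, 9 of H2B, 6 of H3 and 6 of H4, since fewer genes were counted. With a match by either end, added after seeing the data, 55 were open. Words of 24 bases gave a median genome-unique share of 73.3% in place of 75.5%. No paired analysis was possible because there is only 1 group. The weakest open regions rest on the fewest steps of signal, and genes without unique words cannot be judged from the deposited lists.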
